A study of Rattus norvegicus with 7 samples.

Results

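Genes of the caspase, Bcl2 and death receptor families were examined on Affymetrix Rat230_2 arrays of whole testis from adult rats of the outbred Sprague-Dawley stock. The members are the probe sets annotated to 1 gene whose symbol begins with Casp and a digit, Bcl2, Birc, Tnfrsf or Traf and a digit, or is 1 of a short set of apoptosis genes such as Bak1, Bid, Bad, Mcl1, Fas, Apaf1 and Diablo. The rule found 57 genes, of 14217 named singly on the array, with 81 probe sets among the 31042 that are no controls. The untreated group held 3 rats, and the others had been given cadmium chloride, which damages the testis, once into the peritoneum at 3 mg/kg body weight, with testes taken 8 h (n = 2) or 20 h (n = 2) afterwards. The labels call the arrays biological replicates, read here as 1 animal each. They give no exact age, and untreated rats are the only controls, with no vehicle injection named. In whole testis, fewer cells of a type and less RNA per cell cannot be told apart.

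Apoptosis is run by caspases, proteases that are made as inactive precursors and cut each other and their substrates once a cell is committed to die. In the mitochondrial route, Bax and Bak1 open the outer mitochondrial membrane, the Bcl2, Bcl2l1 and Mcl1 proteins hold them back, and BH3-only proteins such as Bid, Bad, Bcl2l11 and Bbc3 relieve that hold. Cytochrome c then binds Apaf1 to form the apoptosome, which activates Casp9, while Diablo displaces inhibitor of apoptosis proteins from caspases. In the receptor route, Fas and the TNF receptor Tnfrsf1a recruit Casp8, and TNF receptors also signal survival and inflammation through Traf adaptors and the ubiquitin ligases Birc2 and Birc3. In testis, apoptosis of germ cells is part of normal spermatogenesis. Much of this control acts on proteins, by cleavage, release and binding, which an mRNA array does not measure.

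The promoters of 4 members are shown because the results on them are described in most detail: Tnfrsf1a and Mcl1 were the members above all untreated arrays on both 20 h arrays, 1 probe set of Bcl2l11 was lower at both times, and 1 of Apaf1 lay on opposite sides of the untreated arrays at the 2 times. They were chosen after the values were seen. Each is the 250 bases before the annotated transcription start, from RefSeq on build GRCr8, matched by gene ID; 45 of the 57 genes had such an entry. Capitals mark matches, on either strand, to ACGTG (the core of hypoxia elements), TGACG (a core of cyclic AMP response elements), TGANTCA (AP-1), GGG and CC with any 5 bases between (a loose NF-kB pattern), GGGCGG (GC box) and TGTTTAC (forkhead). The arrays name no genome build, and the coordinates are those of the promoter table.
Tnfrsf1a: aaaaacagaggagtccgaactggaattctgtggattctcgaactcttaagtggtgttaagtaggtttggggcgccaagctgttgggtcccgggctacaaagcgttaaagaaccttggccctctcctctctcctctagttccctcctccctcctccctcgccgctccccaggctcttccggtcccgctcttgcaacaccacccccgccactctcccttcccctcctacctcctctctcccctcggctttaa
Mcl1: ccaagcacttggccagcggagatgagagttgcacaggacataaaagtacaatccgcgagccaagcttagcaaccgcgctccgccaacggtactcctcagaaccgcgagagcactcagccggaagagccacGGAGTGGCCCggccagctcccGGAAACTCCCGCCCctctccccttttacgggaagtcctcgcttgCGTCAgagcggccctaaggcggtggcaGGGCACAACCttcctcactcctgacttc
Bcl2l11: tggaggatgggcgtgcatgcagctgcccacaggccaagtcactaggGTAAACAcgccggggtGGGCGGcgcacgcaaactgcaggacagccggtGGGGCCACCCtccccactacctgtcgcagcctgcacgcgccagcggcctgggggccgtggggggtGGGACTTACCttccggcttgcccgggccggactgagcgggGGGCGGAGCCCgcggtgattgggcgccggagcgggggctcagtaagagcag
Apaf1: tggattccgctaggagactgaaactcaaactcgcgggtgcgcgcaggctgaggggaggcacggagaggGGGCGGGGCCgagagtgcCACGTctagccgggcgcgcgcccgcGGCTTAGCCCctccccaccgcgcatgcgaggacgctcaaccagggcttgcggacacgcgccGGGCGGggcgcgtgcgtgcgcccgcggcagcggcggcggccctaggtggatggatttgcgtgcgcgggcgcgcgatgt
The Tnfrsf1a stretch is chr4:159836869-159837118 on the plus strand, that of Mcl1 chr2:185907918-185908167 on the plus strand, that of Bcl2l11 chr3:135819792-135820041 on the plus strand and that of Apaf1 chr7:27466773-27467022 on the minus strand.

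None of the 6 patterns was found in the Tnfrsf1a stretch, which says only that these letters are not in this window. Mcl1 had 1 TGACG, 55 bases before the start, 3 matches to the NF-kB pattern and 1 GC box, which overlaps one of those matches. Bcl2l11 had 1 forkhead match, 204 bases before the start, 4 matches to the NF-kB pattern, the last pair of which overlap each other and a GC box, and 2 GC boxes in all. Apaf1 had 1 ACGTG, 164 bases before the start, 2 NF-kB matches and 2 GC boxes, of which 1 overlaps an NF-kB match. Most of these patterns are common. Of 33469 promoters of the same length, 16.6% held ACGTG, 18.2% TGACG, 6.34% TGANTCA, 42.3% the NF-kB pattern, 30.5% GGGCGG and 3.21% TGTTTAC. Of the 45 member promoters, 20% held ACGTG, 17.8% TGACG, 17.8% TGANTCA, 62.2% the NF-kB pattern, 55.6% GGGCGG and 6.67% TGTTTAC. These differences in share were not tested. A match is a description of the sequence and not evidence that a factor binds there.

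Of the 81 member probe sets, 52 lay above the 40th percentile of their array on at least 2 arrays and were tested (64.2%, against 67.2% of all probe sets); they name 38 genes. The other 29 had signals from 1.0 to 61.9 on any array and were left out, and 19 genes had no probe set that was tested. These dim genes include Casp8, the initiator caspase of the receptor route, whose brightest probe set gave 15.8 to 61.9 in untreated testis, 14.2 and 18.1 at 8 h and 38.8 and 26.3 at 20 h. They also include Fas, whose brightest probe set gave 8.9 to 27.2 in untreated testis, 27.8 and 27.9 at 8 h and 20.5 and 26.8 at 20 h. Bcl2a1, Bcl2l15, Bik, Birc7, Casp16, Traf1, Traf3ip2, Traf5 and 9 TNF receptors, among them Tnfrsf1b, Tnfrsf9 and Tnfrsf11b, were the rest. No difference is read from such signals. Bax shares its probe set with another gene, and both probe sets of Cycs name further genes, so neither is a member; Pmaip1 was not analysed here. Casp8ap2, Traf3ip1, Traf3ip2 and Traf3ip3 are members by their symbols and are partners of Casp8 or Traf3, not caspases or Traf proteins.

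No member passed at either time. At 8 h, 0 of 52 passed limma's adjusted p of 0.05 (background 0% of 20857 probe sets; lowest adjusted p among members 0.836), and 4 had an unadjusted p under 0.05. All 4 were lower at 8 h, where 4.06% of all probe sets had such a value, and 0 were higher, where 1.16% did. At 20 h against untreated testis, 0 of 52 passed (background 0%; lowest adjusted p 0.999), with 2 higher (background 0.767%) and 1 lower (2.34%) at an unadjusted p under 0.05. Between 20 h and 8 h, 0 of 52 passed (background 0%; lowest adjusted p 1.00), with 2 higher (1.22%) and 1 lower (0.7%). The standard error of a member's log2 fold change against untreated testis had a median of 0.28 and ran from 0.13 to 0.67. The comparisons at 8 h and 20 h share the untreated arrays.

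The arrays were hybridized on 3 days: day 1 held untreated and 20 h replicates 1, day 2 only untreated replicate 2, and day 3 the other 4. Untreated replicate 2 was stained at 25 °C for 600 s, the other 6 at 35 °C for 300 s, and its instrument file gives the sample type as mouse, against the label. Without it, 0 of 52 members passed in each comparison, and the 20 h log2 fold changes were 0.77 for Tnfrsf1a, 0.52 for Mcl1 (brighter probe set) and -0.69 for Bcl2l11 (brightest probe set).

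The direction of the members as a whole depended on the setting and on single arrays. At 8 h, 33 of 52 were lower on average and their median log2 fold change was -0.08; of all probe sets 61.0% were lower, and the median was the same, -0.08. With quantile normalization 23 of the 52 were lower at 8 h and the median was 0.04, with 48.7% of all probe sets lower. Blocking on the hybridization day gave 23 and a median of 0.02, with 53.3% of all probe sets lower. The 8 h direction of the members thus changed with the scaling and the block, and the share over all probe sets fell with both. At 20 h, 26 members were lower and 26 higher, with a median of -0.02, and of all probe sets 58.8% were lower, with a median of -0.05. Without 20 h replicate 1, 36 members were lower and the median was -0.12, with 59.4% of all probe sets lower. Without 20 h replicate 2, 22 were lower and it was 0.15, with 52.5% of all probe sets lower. From 8 h to 20 h, 34 were higher, with a median of 0.09, and of all probe sets 52.6% were higher, with a median of 0.02. Without 20 h replicate 1 that count was 20 and the median -0.07, and without 20 h replicate 2 they were 34 and 0.26. Without 8 h replicate 2 they were 27 and 0.02, and blocking on day they were 26 and -0.02. In the same order, 50.4%, 44.7%, 49.6% and 53.4% of all probe sets were lower. As a plot of all members by role shows, no role group was of 1 colour across the cadmium arrays.

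**Figure D1:**
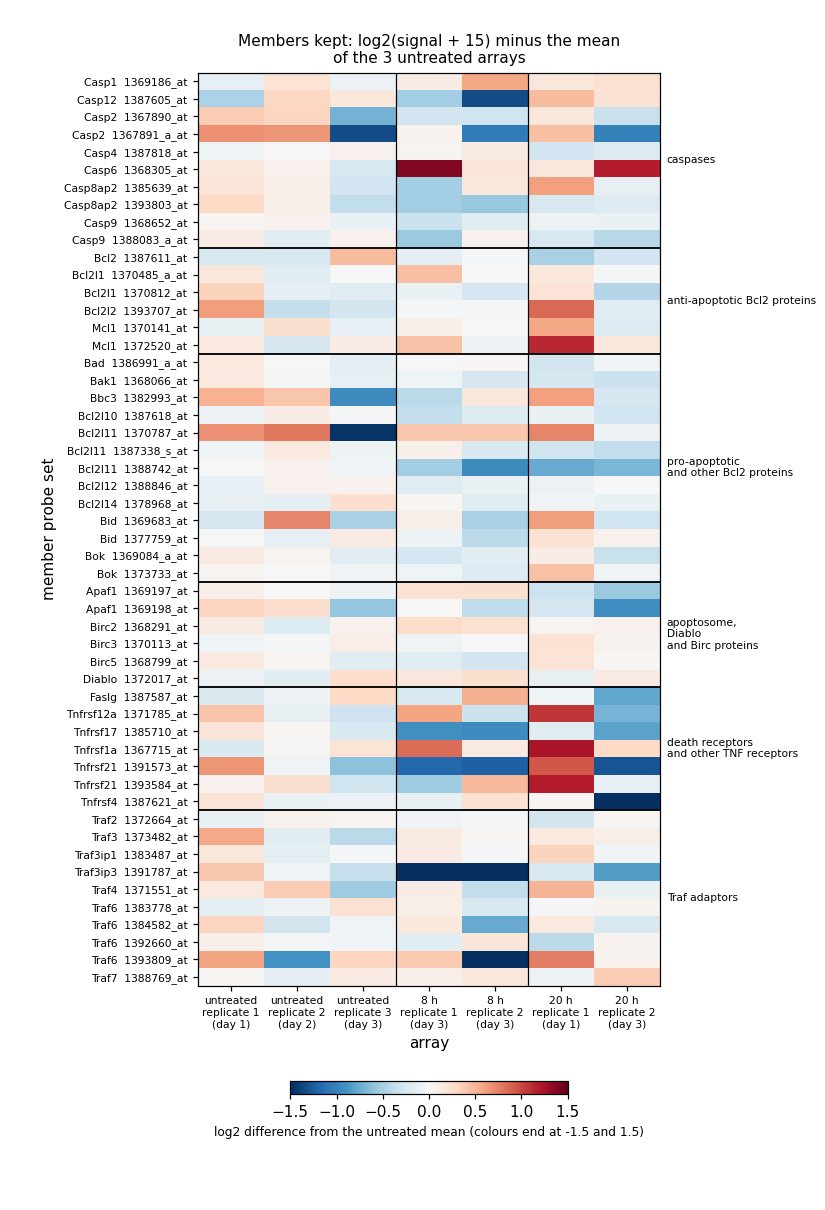
Each row is 1 of the 52 member probe sets tested and each column 1 array; colour is log2(signal + 15) minus the mean of the 3 untreated arrays, from blue (lower) to red (higher), with black lines between role groups and between treatment groups. On all 4 cadmium arrays 9 rows are blue, among them Bcl2l11 (brightest probe set) and Traf3ip3, and 5 are red, among them Tnfrsf1a with its highest value on 20 h replicate 1.

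Among receptors, with the ligand Faslg counted here, 20 probe sets for 16 genes are members and 7 were tested. Tnfrsf1a, the main receptor for TNF, gave signals of 95.4, 114.5 and 132.8 in untreated testis, 213.9 and 125.9 at 8 h and 283.9 and 143.0 at 20 h. Both 20 h arrays lay above every untreated array, by a wide gap on replicate 1 and by a small one on replicate 2, and 1 of the 8 h arrays lay within the untreated range. The untreated arrays averaged 114 ± 18.7 (SD, n = 3), against 213 ± 99.6 (SD, n = 2) at 20 h, which is 0.76 ± 0.31 as a log2 fold change (SE; limma, adjusted p = 0.999). At 8 h it was 170 ± 62.2 (SD, n = 2), or 0.48 ± 0.31 as a log2 fold change (SE; limma, adjusted p = 0.836). Without 20 h replicate 1 the 20 h value was 0.30, and without 20 h replicate 2 it was 1.22. Without 8 h replicate 1 the 8 h value was 0.13, and without 8 h replicate 2 it was 0.83. It was 1 of 2 member probe sets whose 20 h arrays lay above all untreated arrays (background 4.65%); the other was Mcl1.

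The remaining receptors and Faslg differed from array to array. Tnfrsf12a, the receptor for the cytokine Tweak, gave 55.3, 33.2 and 27.0 in untreated testis, 63.7 and 26.7 at 8 h and 94.7 and 17.3 at 20 h. One array of each cadmium group lay above all untreated arrays and the other below them. Tnfrsf21, or death receptor 6, gave 89.1 with its brighter probe set on 20 h replicate 1 and 16.8 to 49.8 on the other 6 arrays. Its other probe set gave 70.7 on that array, 55.9 on the untreated array of the same day and 3.2 to 28.3 on the other 5. Tnfrsf4, a costimulatory receptor of T cells, gave 4.5 on 20 h replicate 2 and 50.7 to 68.4 on the other 6. Faslg, the ligand of Fas, gave 45.0, 51.0 and 70.6 in untreated testis, 44.4 and 86.1 at 8 h and 51.8 and 25.6 at 20 h, so that the 8 h arrays fell on either side of the untreated range and the lowest array was 20 h replicate 2.

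Tnfrsf17, the B cell maturation antigen, was 1 of the 4 probe sets lower at 8 h at an unadjusted p under 0.05, which are named here after their values were seen. Its tested probe set gave 74.2, 65.2 and 52.1 in untreated testis, 26.5 and 25.7 at 8 h and 54.1 and 29.8 at 20 h. Both 8 h arrays lay below every other array, and the 20 h arrays fell on either side of the lowest untreated value. Every day 3 array, both 8 h arrays among them, was lower than every other array. The log2 fold change at 8 h was -0.93 ± 0.32 (SE; limma, adjusted p = 0.836), and blocking on day it was -0.65. These values are dim: the median signals of the arrays ran from 52.8 to 71.9.

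Traf adaptors, with Traf3ip1, Traf3ip2 and Traf3ip3 counted here, are 16 probe sets for 10 genes. Of these, 10 probe sets were tested, 4 with a higher and 6 with a lower mean at 8 h. Traf2, which links TNF receptors to Birc2 and Birc3, gave 631.7, 701.7 and 695.9 in untreated testis, 652.8 and 665.4 at 8 h and 555.7 and 698.0 at 20 h. Its log2 fold changes were -0.04 ± 0.15 (SE) at 8 h and -0.11 ± 0.15 (SE) at 20 h. Traf6, which also serves interleukin 1 and Toll-like receptors, gave 161.4 to 213.7 with its brightest probe set in untreated testis, 193.1 and 151.1 at 8 h and 177.1 and 187.8 at 20 h, and its 4 probe sets did not share a sign in any comparison. Traf7 gave 106.2 to 129.9 in untreated testis, 124.8 and 134.5 at 8 h and 110.9 and 158.0 at 20 h. Traf4, an adaptor of epithelial cells, gave 43.7 to 95.5 in untreated testis, which spans both 8 h arrays (77.0 and 50.8) and 1 of the 20 h arrays (106.0 and 63.7).

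Traf3ip3, a Traf3 partner of lymphoid and other cells, had the lowest p of all members at 8 h. It gave 89.2, 60.7 and 47.3 in untreated testis, 10.1 and 11.3 at 8 h and 51.6 and 29.2 at 20 h. The 8 h arrays lay below all others, and the 20 h arrays were between, with 1 of them inside the untreated range. It was lower on every day 3 array than on every other array, and both 8 h arrays are of day 3. The log2 fold change was -1.62 ± 0.37 (SE) at 8 h and -0.54 ± 0.37 (SE) at 20 h (limma, adjusted p = 0.836 and 0.999). The 8 h value ran from -2.47 to -0.92 over the alternative settings; 10.1 and 11.3 lie below the 15 added before the log. A second probe set of Traf3ip3 had signals of 1.3 to 7.7 and was not tested.

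**Figure D2:**
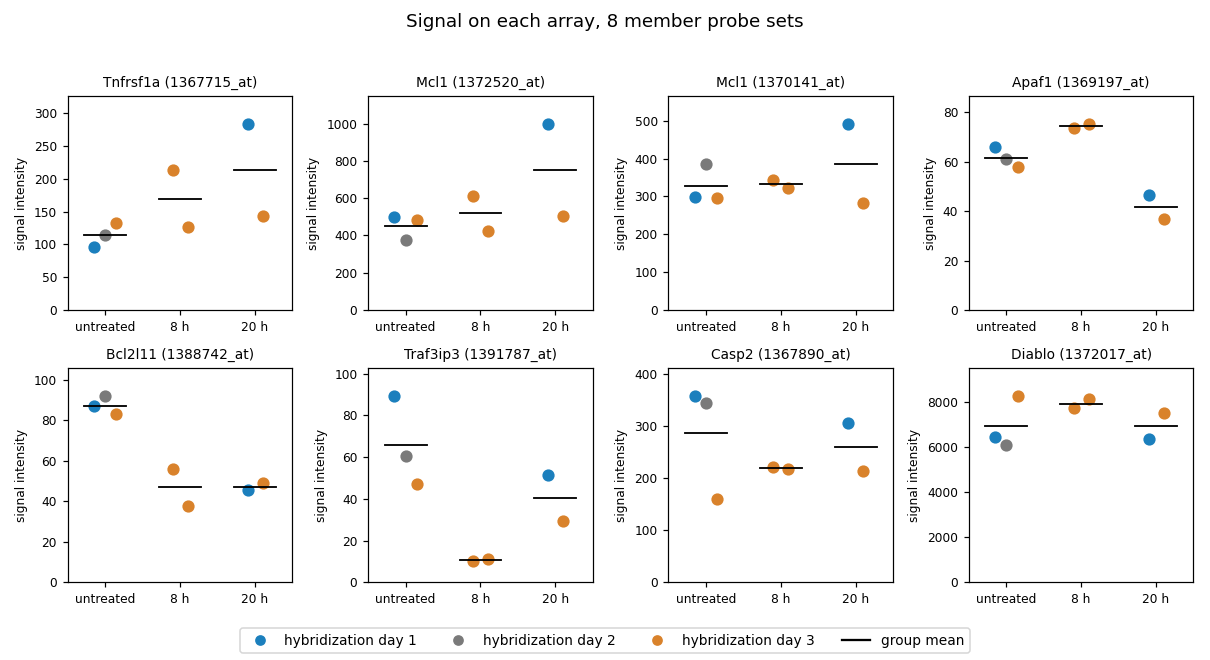
Signal intensity on a linear axis (starting at 0) of 8 member probe sets on each of the 7 arrays, by group; points are arrays coloured by hybridization day and the black line is the group mean. Tnfrsf1a and Mcl1 stand highest on 20 h replicate 1, the day 1 array of that group, Bcl2l11 (brightest probe set) is lower on all 4 cadmium arrays, and Casp2 is lower on the 4 day 3 arrays than on the other 3.

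Caspases, with Casp8ap2 counted here, are 14 probe sets for 9 genes, with 10 tested. Of these, 3 had a higher and 7 a lower mean at 8 h, and 4 a higher and 6 a lower mean at 20 h. Casp9, the initiator activated by the apoptosome, gave 204.3, 209.2 and 184.9 in untreated testis, 156.7 and 174.3 at 8 h and 187.9 and 185.3 at 20 h with its brightest probe set. The 8 h arrays lay below all untreated arrays and the 20 h arrays within their range. Here too every day 3 array, both 8 h arrays among them, was lower than every other array. The log2 fold changes were -0.25 ± 0.17 (SE) and -0.09 ± 0.17 (SE). Its second tested probe set gave -0.25 ± 0.26 (SE) and -0.33 ± 0.26 (SE). Casp1, which processes interleukin 1 beta, gave 102.4, 132.5 and 105.3 in untreated testis, 122.8 and 176.1 at 8 h and 129.2 and 134.4 at 20 h, with log2 fold changes of 0.35 ± 0.23 (SE) and 0.20 ± 0.23 (SE). Casp4, an inflammatory caspase, gave 57.6 to 64.4 in untreated testis, 62.8 and 67.9 at 8 h and 47.2 and 51.0 at 20 h, where both arrays were below all others.

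Casp12, a caspase linked to the endoplasmic reticulum, gave 23.3, 50.9 and 44.4 in untreated testis, 22.0 and 5.9 at 8 h and 58.9 and 46.7 at 20 h. Both 8 h arrays were below the untreated arrays, replicate 1 only just, and the 20 h arrays were in or above their range. The log2 fold change was -0.93 ± 0.41 (SE) at 8 h, and the difference from 8 h to 20 h was 1.28 ± 0.45 (SE; limma, adjusted p = 1.00), the lowest p of any member in that comparison. Without 8 h replicate 2 these were -0.52 and 0.87. Casp6, an effector caspase, gave 4.3 to 10.6 in untreated testis, 44.4 and 11.1 at 8 h and 10.5 and 36.3 at 20 h, so that 1 array of each cadmium group was near the untreated level and the other was bright enough to pass the filter. Casp8ap2, a nuclear partner of Casp8, gave 117.3, 98.0 and 67.9 in untreated testis, 59.7 and 57.6 at 8 h and 76.2 and 79.1 at 20 h.

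Casp2, a caspase tied to DNA damage and stress, followed the hybridization day. Its brighter probe set gave 357.6 and 344.5 on untreated replicates 1 and 2 and 306.7 on 20 h replicate 1, all hybridized on days 1 and 2. On day 3 it gave 160.9 on untreated replicate 3, 221.1 and 217.7 at 8 h and 213.3 on 20 h replicate 2. Within day 3 the untreated array was the lowest, and the log2 fold change at 8 h was -0.29 ± 0.32 (SE) without the day and 0.27 when blocked on day. The dimmer probe set gave 97.0 to 117.2 on days 1 and 2 and 17.2 to 69.9 on day 3. Over all members, 12 of 52 were lower on every day 3 array than on every other array (background 18.7%) and 2 were higher (background 10.6%), namely Diablo and Traf7. The lower ones include both tested probe sets of Casp2 and Bok. The rest are 1 each of Bbc3, Bcl2l11, Birc5, Casp9, Tnfrsf17, Tnfrsf21, Traf3ip3 and Traf4. Actin's 3' probe signal over its 5' one, on the log2 scale a gauge of RNA quality, ran from 1.19 to 1.42 on day 3 arrays and from 0.73 to 0.99 elsewhere; its part in these values was not tested.

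Of the proteins that hold cell death back, Mcl1, a short-lived Bcl2 relative, had the highest log2 fold change at 20 h against untreated testis. Its brighter probe set gave 497.1, 373.9 and 484.5 in untreated testis, 612.8 and 426.0 at 8 h and 999.0 and 507.3 at 20 h. Both 20 h arrays lay above every untreated array, but replicate 2 exceeded the highest of them by little. At 8 h, 1 array lay above the untreated range and 1 within it. The untreated arrays averaged 452 ± 67.8 (SD, n = 3), against 753 ± 348 (SD, n = 2) at 20 h, which is 0.65 ± 0.28 as a log2 fold change (SE; limma, adjusted p = 0.999). The second probe set gave 298.3, 386.2 and 296.9 in untreated testis, 344.7 and 323.3 at 8 h and 491.7 and 282.6 at 20 h, with a log2 fold change of 0.19 ± 0.24 (SE) at 20 h. On 20 h replicate 1 both exceeded the untreated array of the same day, by 0.99 and 0.69 on the log2 scale, and on 20 h replicate 2 they differed from theirs by 0.06 and -0.07. Without 20 h replicate 1 the 20 h values of the probe sets were 0.17 and -0.19, and without 20 h replicate 2 they were 1.13 and 0.58.

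Bcl2l1, which encodes Bcl-xL, gave 1203.4, 856.3 and 836.7 in untreated testis, 889.9 and 797.2 at 8 h and 1098.1 and 695.8 at 20 h. The groups overlapped, and the highest value of each group that spans days 1 and 3 was its day 1 array. The log2 fold changes were -0.17 ± 0.22 (SE) at 8 h and -0.12 ± 0.22 (SE) at 20 h, and those of the second tested probe set 0.22 ± 0.20 (SE) and 0.06 ± 0.20 (SE). Bcl2 itself gave 30.5, 29.9 and 58.9 in untreated testis, 33.6 and 37.4 at 8 h and 23.1 and 28.6 at 20 h, all dim. Bcl2l2, a survival factor of spermatogenesis, gave 130.3 and 153.8 on the day 1 arrays, untreated replicate 1 and 20 h replicate 1, and 58.4 to 77.4 on the other 5. The log2 fold change at 20 h was 0.34 ± 0.38 (SE).

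Bcl2 relatives that promote death, and others of the family without a settled role, are 15 probe sets for 11 genes. Of the 13 tested, 2 had a higher and 11 a lower mean at 8 h, and 5 a higher and 8 a lower mean at 20 h. Bcl2l11, the BH3-only protein Bim, gave 86.9, 91.9 and 83.1 in untreated testis with its brightest probe set, 56.0 and 37.7 at 8 h and 45.5 and 48.8 at 20 h. All 4 cadmium arrays lay below all untreated arrays, and the untreated arrays were close together. The untreated arrays averaged 87.3 ± 4.41 (SD, n = 3), those at 8 h 46.9 ± 12.9 (SD, n = 2) and those at 20 h 47.2 ± 2.33 (SD, n = 2). The log2 fold changes were -0.74 ± 0.26 (SE; limma, adjusted p = 0.836) and -0.72 ± 0.26 (SE; limma, adjusted p = 0.999), and blocking on day gave -0.71 and -0.69. It was 1 of 11 member probe sets with both 8 h arrays below the untreated range (background 15.4%) and 1 of 8 with both 20 h arrays below it (background 10.7%).

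Neither of the other probe sets of Bcl2l11 lay below the untreated range at both times. The second brightest gave 77.4, 84.4 and 5.7 in untreated testis, 61.0 and 60.8 at 8 h and 80.2 and 39.6 at 20 h, where the low value of untreated replicate 3 stands alone. It had log2 fold changes of 0.40 ± 0.62 (SE) at 8 h and 0.33 ± 0.62 (SE) at 20 h. The dimmest gave 45.4 to 55.5 in untreated testis, 52.5 and 39.3 at 8 h and 37.0 and 34.5 at 20 h. Both of its 20 h arrays lay below all untreated arrays, and 1 of its 8 h arrays lay within their range. It is another of the 8 member probe sets with both 20 h arrays below that range. Its log2 fold changes were -0.08 ± 0.29 (SE) and -0.33 ± 0.29 (SE). Of the 11 member genes with several tested probe sets, 7 had the same sign in all of them at 8 h and 5 at 20 h, and 7 did from 8 h to 20 h.

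Bad, a BH3-only protein controlled by survival kinases, gave 570.7, 511.8 and 464.3 in untreated testis, 516.9 and 522.4 at 8 h and 417.0 and 494.6 at 20 h. Its log2 fold changes were 0.02 ± 0.16 (SE) and -0.17 ± 0.16 (SE). Bok, a pore-forming relative of Bax, gave 653.5 to 698.9 with its brighter probe set in untreated testis. It gave 646.1 and 591.1 at 8 h and 925.3 and 653.9 at 20 h, so that 20 h replicate 1 stood above the other 6 arrays. The other probe set gave 328.9 to 402.7 in untreated testis, 309.4 and 328.8 at 8 h and 401.4 and 289.3 at 20 h. Their log2 fold changes at 20 h were 0.20 ± 0.17 (SE) and -0.11 ± 0.19 (SE). Bak1, the other pore former, gave 47.9 to 60.9, then 50.6 and 42.7 at 8 h and 42.2 and 39.8 at 20 h. Bid, which Casp8 cleaves to link the routes, gave with its brighter probe set 52.0 to 64.4 in untreated testis, 54.4 and 40.5 at 8 h and 70.0 and 61.2 at 20 h. Bbc3, or Puma, a p53 target, gave 79.6, 73.0 and 19.2 in untreated testis, 34.6 and 59.1 at 8 h and 85.9 and 40.3 at 20 h, and was lower on every day 3 array than on the others.

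Bcl2l14 and Bcl2l12 are members without a settled role in cell death. Bcl2l14, also called Bcl-G, gave 4025.1, 3908.8 and 5187.4 in untreated testis, 4425.0 and 3817.4 at 8 h and 4231.0 and 4057.2 at 20 h. Untreated replicate 3 was the highest, and the 3 cadmium arrays of its day differed from it by -0.23, -0.44 and -0.35 on the log2 scale. The log2 fold changes against all untreated arrays were -0.08 ± 0.16 (SE) and -0.07 ± 0.16 (SE). Bcl2l12 gave 1630.2 to 1863.8 in untreated testis, 1572.0 and 1660.0 at 8 h and 1675.9 and 1768.7 at 20 h, with log2 fold changes of -0.14 ± 0.13 (SE) and -0.05 ± 0.13 (SE).

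**Figure D3:**
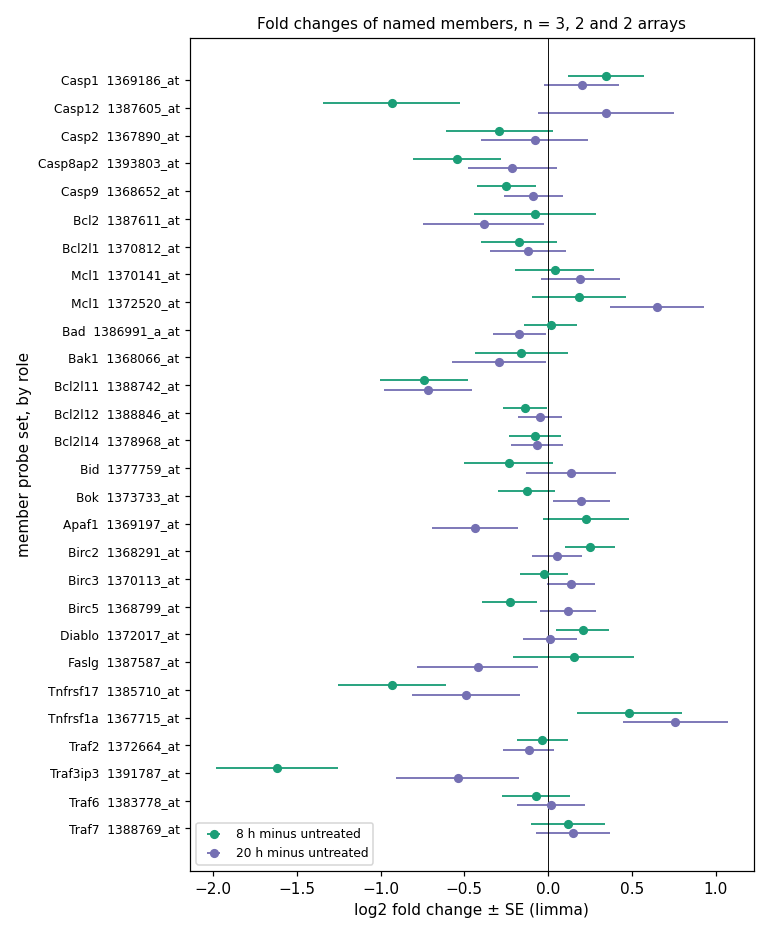
Log2 fold changes from limma at 8 h and 20 h against the same 3 untreated arrays for 28 member probe sets, ordered by role; points are estimates and bars 1 standard error. The estimates lie on both sides of 0; Bcl2l11 (brightest probe set) lies at -0.74 and -0.72, Traf3ip3 is lowest at 8 h, Tnfrsf1a and Mcl1 (brighter probe set) lie above 0 at 20 h, and none of these passed an adjusted p of 0.05.

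Downstream of mitochondria, Apaf1, the scaffold of the apoptosome, gave 65.9, 61.3 and 57.9 in untreated testis with its brighter probe set, 73.8 and 75.3 at 8 h and 46.7 and 37.0 at 20 h. The 8 h arrays lay above all untreated arrays and the 20 h arrays below them. It was 1 of 3 member probe sets with both 8 h arrays above the untreated range (background 7.59%), beside Birc2 and Casp6; Casp6 was tested only because of its bright cadmium arrays, and its second 8 h value, 11.1, is below the 15 added and close to the highest untreated value of 10.6. The log2 fold changes were 0.22 ± 0.26 (SE) at 8 h and -0.44 ± 0.26 (SE) at 20 h, and the difference from 8 h to 20 h was -0.66 ± 0.28 (SE; limma, adjusted p = 1.00), or -0.76 when blocked on day. The other probe set gave 66.6, 62.5 and 28.5 in untreated testis, 50.5 and 35.0 at 8 h and 39.7 and 19.1 at 20 h, with -0.18 ± 0.40 (SE) at 8 h and -0.59 ± 0.40 (SE) at 20 h, and so did not share the 8 h direction. Diablo gave 6423.6, 6064.9 and 8236.1 in untreated testis, 7702.3 and 8095.0 at 8 h and 6357.9 and 7484.1 at 20 h; its 4 day 3 arrays were above the other 3, and its log2 fold changes were 0.21 ± 0.16 (SE) and 0.01 ± 0.16 (SE).

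Of the Birc genes, Birc2, or cIAP1, gave 919.7, 721.3 and 874.9 in untreated testis, 1012.0 and 979.9 at 8 h and 861.8 and 872.4 at 20 h. Both 8 h arrays lay above the untreated range, and the 20 h arrays were inside it; the log2 fold changes were 0.25 ± 0.15 (SE) and 0.05 ± 0.15 (SE). Birc3, or cIAP2, an NF-kB target in many cells, gave 554.1 to 622.9 in untreated testis, 555.6 and 584.1 at 8 h and 678.1 and 602.9 at 20 h, with log2 fold changes of -0.03 ± 0.14 (SE) and 0.14 ± 0.14 (SE). Birc5, or survivin, a chromosomal passenger of dividing cells, gave 301.5 to 374.7 in untreated testis, 298.5 and 278.1 at 8 h and 395.4 and 348.9 at 20 h; it was lower on all 4 day 3 arrays than on the other 3.

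Between 20 h and 8 h, 10 of 52 members had both 20 h arrays above both 8 h arrays (background 15.2%) and 8 had both below (background 13.2%). The 8 lower ones were Apaf1, Bad, Bak1, Bcl2, Birc2, Casp4, Diablo and 1 probe set of Bcl2l11, and the 10 higher ones included Bid, Birc3, Birc5, Casp9, Casp12 and Traf3ip3. Both shares lie near those of all probe sets.

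Differences within a hybridization day set each cadmium array against the untreated array of its day, 1 array against 1, without a test. At least 2-fold higher than untreated replicate 3 were 3 of 52 members on 8 h replicate 1 (background 2.61%), 2 on 8 h replicate 2 (2.25%) and 2 on 20 h replicate 2 (2.24%). At least 2-fold lower were 1 (2.41%), 3 (2.6%) and 2 (2.61%). On 20 h replicate 1, against untreated replicate 1, 2 were higher (1.4%), namely Tnfrsf1a by 1.44 and Tnfrsf21 by 1.11 on the log2 scale, and 0 were lower (2.73%). The second brightest probe set of Bcl2l11 accounts for a higher call on all 3 arrays set against untreated replicate 3, the array on which it gave 5.7. The medians of the 52 members were -0.01 and -0.01 at 8 h and -0.01 and -0.04 at 20 h, against -0.00, -0.01, -0.06 and -0.02 over all probe sets.

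**Figure D4:**
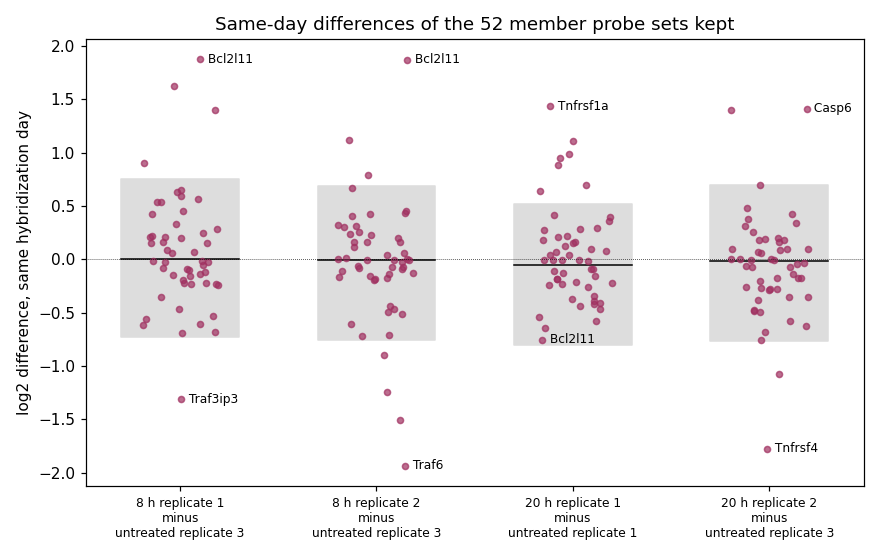
Log2 difference between each cadmium array and the untreated array of its hybridization day for the 52 member probe sets tested (points, spread sideways at random); the grey box holds the middle 90% of all 20857 probe sets and the black line is their median. Most members lie within the grey box in each column. On 20 h replicate 1 the box runs from -0.80 to 0.52, and the members outside it all lie above it. On that array the highest is Tnfrsf1a at 1.44 and the lowest member lies at -0.75.

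Other genes of the pathway were taken from 3 lists, none with a gene that is also a member. Of other apoptosis genes, such as adaptors, ligands and nucleases, 44 of 68 were tested; 18 were higher and 26 lower at 8 h, 19 higher and 25 lower at 20 h, 0 passed limma's adjusted p, and the medians were -0.03 and -0.03. Of p53 targets and DNA damage genes, 21 of 34 were tested; 12 were higher and 9 lower at 8 h and 13 higher and 8 lower at 20 h, 0 passed, and the medians were 0.03 and 0.09. Of NF-kB genes and targets, 19 of 29 were tested, with 8 higher and 11 lower at 8 h and 9 higher and 10 lower at 20 h, 0 passed, and medians of -0.08 and -0.05.

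Named after their values were seen, Gadd45a and Ccng1 were the p53 list members with an unadjusted p under 0.05 (limma) at 20 h. Both were higher, where 0.767% of all probe sets had such a value, and 2.34% were lower with one. Of the NF-kB list, 1 gene was higher and 1 lower with such a value at 20 h. Of other apoptosis genes, 1 was lower and 0 were higher. Gadd45a, a stress and DNA damage response gene, gave 142.2, 145.2 and 142.6 in untreated testis, 187.2 and 161.0 at 8 h and 329.0 and 193.0 at 20 h. Ccng1, a p53 target, gave 194.3, 184.8 and 189.7 in untreated testis, 264.5 and 228.3 at 8 h and 249.6 and 273.4 at 20 h. In both, all 4 cadmium arrays lay above all 3 untreated arrays, whose values were close together. Of all probe sets, 7.59% had both 8 h arrays above the untreated range and 4.65% both 20 h arrays. The log2 fold changes at 20 h were 0.76 ± 0.23 (SE) for Gadd45a and 0.43 ± 0.17 (SE) for Ccng1 (limma, adjusted p = 0.999 for both). Ier3, an immediate early gene induced by NF-kB, gave 77.4, 55.9 and 87.4 in untreated testis, 85.0 and 114.5 at 8 h and 465.8 and 156.8 at 20 h. Its 20 h log2 fold change was 1.72 ± 0.39 (SE; limma, adjusted p = 0.999). Both 20 h arrays lay above all others, replicate 1 by far. Xiap, the caspase inhibitor, gave 65.3 to 104.4 in untreated testis, 47.0 and 36.3 at 8 h and 99.7 and 65.6 at 20 h. Ripk2, a kinase of innate immune signalling, gave 167.0 on 20 h replicate 1 and 31.6 to 58.0 on the other 6 arrays.

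The tissue label was met by its markers, with 12 spermatid, 10 Sertoli cell and 8 Leydig cell genes tested, all of those present on the arrays. The summed signal of the spermatid markers was 155619 to 163902 on the 4 day 3 arrays and 109177 to 118427 on the other 3. This is the same split of arrays as that of Casp2 and Diablo. All 12 had a higher mean at both times. Their same-day medians were near 0, at 0.02 and -0.05 at 8 h and -0.01 and 0.04 at 20 h on the log2 scale. Spermatocyte markers, 5 tested, had same-day medians of 0.43 and 0.74 at 8 h and -0.04 and 0.80 at 20 h on the log2 scale, and sums of 7764 to 10276 in untreated testis, 9285 and 10472 at 8 h and 10338 and 10553 at 20 h. The array on which Tnfrsf1a and Mcl1 were highest also stood apart in the Leydig list, and the part of cell makeup in the members' values was not tested. The summed signal of the 8 Leydig markers was 2896 on 20 h replicate 1, 7662 on 20 h replicate 2, 11754 and 7448 at 8 h and 6398 to 8618 in untreated testis. That of 12 endothelial markers was 657.1 and 883.9 at 20 h, 573.0 and 852.5 at 8 h and 975.7 to 1137 in untreated testis. All 10 that were tested had a lower mean at both times. Their same-day medians were -0.58 and -0.22 on 8 h replicates 1 and 2. On 20 h replicates 1 and 2 they were -0.86 and 0.02, so replicate 2 was not lower within its day. The summed signal of 13 macrophage markers was 6476 and 6507 at 20 h, 6642 and 6572 at 8 h and 5813 to 6179 in untreated testis. Of neutrophil markers 3 of 10 on the array were bright enough to test, with sums of 888.0 and 697.2 at 20 h, 836.4 and 811.5 at 8 h and 734.4 to 1023 in untreated testis. Of lymphocyte markers, which bear on Tnfrsf4, Tnfrsf17 and Traf3ip3, 6 of 10 were tested, with sums of 921.4 and 851.7 at 20 h, 907.2 and 853.9 at 8 h and 948.7 to 1241 in untreated testis. No marker of these lists was at 0 on any array.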

How the data were processed

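Signals of 7 Affymetrix Rat230_2 arrays were analysed. The deposited intensity values are linear MAS 5.0 signals, per the labels' design text and the submitters' processing notes, and have a trimmed mean of 250.1 on every array. Other deposited files hold instrument settings, per the file headers, and gave the hybridization day and staining. No genome build is given in the sources used here.

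Values were taken as log2(signal + 15), where 15 is the 20th percentile of all values, rounded. Of 31042 probe sets, the 20857 above the 40th percentile of their array on at least 2 arrays were tested with limma 3.58.1 in R 4.3.3 (lmFit, eBayes with an intensity trend, Benjamini-Hochberg), all groups in 1 fit. The fit was also run on data simulated from its own means and spreads, without a day effect, and read for the 20 h comparison only. A fold change on this scale understates that of dim probe sets. With 3 and 2 arrays a group, the number of arrays limits the precision. Alternatives changed the value added, the filter, the normalization, the trend, the blocks, the arrays and the summary by gene.

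The named genes are a fixed set of core apoptosis genes, the brightest 2 of each role group and the largest same-day differences; others are named after their values were seen. Members and lists were chosen with earlier results of these data known.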

Additional observations from a re-analysis of the deposited data

Results flagged for a closer look

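The brighter probe set of Apaf1, the apoptosome scaffold, lay on opposite sides of the untreated arrays at the 2 times: both 8 h arrays were above all 3 untreated arrays, with a log2 fold change of 0.22, and both 20 h arrays were below them, with -0.44. The difference between the times was -0.66 and did not pass limma's test (adjusted p = 1.00). Both comparisons share the untreated arrays, and the second probe set of Apaf1 was lower at both times.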

How the results depend on the processing

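Over 17 alternative settings no member passed an adjusted p of 0.05 (limma) in any comparison, and the members' lowest adjusted p was 0.187 at 8 h, 0.381 at 20 h and 0.59 from 8 h to 20 h. Correlations of deviations between groups by replicate number were -0.00, 0.09 and 0.14. They cannot decide whether replicate numbers pair the samples, because untreated and 20 h replicates 1 and 2 also differ in hybridization day. The fit with a replicate block, which also leaves out untreated replicate 3 for want of a partner, passed 0 members. It gave 8, 6 and 4 members at an unadjusted p under 0.05, against 7, 4 and 3 without untreated replicate 3 and no block, and 4, 3 and 3 on all arrays. Leaving out arrays moved the count over all probe sets: 0 to 1 at 8 h, where 1 passed without 8 h replicate 2; 0 to 8 at 20 h, where 8 passed without 20 h replicate 2; and 0 to 1 from 8 h to 20 h, where 1 passed without 8 h replicate 2 and 1 without 20 h replicate 2. Counts of members at least 2-fold apart within a day rest on dim signals. With 50 added to the signal they were 0, 0, 1 and 0 on 8 h replicates 1 and 2 and 20 h replicates 1 and 2, against 4, 5, 2 and 4, and with the 60th percentile filter 1, 0, 1 and 0. On 8 h replicate 2, 20 h replicate 1 and 20 h replicate 2 they were 9, 5 and 7 with 1 added and 11, 4 and 8 with no filter, and quantile normalization gave 4 on 20 h replicate 1. The cause was not tested beyond the construction of each setting.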
